A study of Mus musculus with 15 samples.

Results

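Genes of the unfolded protein response and of protein folding in the endoplasmic reticulum (ER) were followed in mouse lungs with and without a challenge with OVA (ovalbumin), an antigen commonly used to model allergic asthma. The members were 10 named genes (Hspa5, Xbp1, Creld2, Sdf2l1, Dnajb9, Hyou1, Pdia4, Pdia6, Manf and Ern2), found by their symbol in the platform annotation. A probe was found for 9 of them, 11 probes of 25697 in all, and Sdf2l1 was not analysed here. The arrays came from whole lung of C57BL/6 mice aged 22 weeks, 1 Illumina beadchip array per mouse. The groups were 4 wild types and 3 homozygous mutants labelled as controls, and 4 wild types and 4 homozygous mutants given the OVA challenge, which are called unchallenged and challenged here. The series title names IFIT2 and interferon signalling. The sources used here give neither the allele, nor the treatment of control mice, nor the schedule of the challenge.

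Secreted and membrane proteins fold in the ER with the help of chaperones and disulfide isomerases. When unfolded protein builds up, the sensors IRE1, PERK and ATF6 start the unfolded protein response: IRE1 cuts the Xbp1 mRNA so that it encodes an active transcription factor, PERK slows translation and favours ATF4, and ATF6 is cut in the Golgi to release a transcription factor. Chaperone genes are the classic targets of ATF6 and XBP1, and cells that secrete heavily, such as goblet cells and plasma cells, depend on this response.

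The genotype labels were checked first with Ifit2, whose 2 probes were detected on 8 of 8 wild-type arrays and on 0 of 7 mutant arrays. The stated design has male mutants, but Xist, which is made from the inactive X chromosome in females, was detected by 2 probes on 15 of 15 arrays while the Y-linked genes Kdm5d, Eif2s3y and Uty were detected on 0, 1 and 2 arrays. Lung tissue was checked with Sftpc of alveolar type 2 cells and Scgb1a1 of club cells, whose group means lay at log2 intensities of 14.22 to 14.52 and 15.36 to 15.40; other genes of the same lists were called lower with challenge, with counts given beside the other marker lists. The mean signal of an array ran from 319.9 to 666 intensity units, and challenged groups were dimmer (438 to 502 against 495 to 645 in wild types, 319.9 to 494 against 620 to 666 in mutants). Some arrays stood apart on marker lists. The mean log2 intensity of 15 exocrine pancreas genes was 5.25 to 5.38 on the 7 unchallenged arrays, 5.68 to 6.04 on 4 challenged arrays, and 12.78 and 11.52 on challenged wild types 1 and 2 and 10.04 and 14.15 on challenged mutants 1 and 2. In addition, 9 goblet cell genes averaged 8.37 and 8.42 on unchallenged mutants 1 and 3 against 6.86 on unchallenged mutant 2 and 6.76 to 7.31 on unchallenged wild types. On the same arrays 8 alternatively activated macrophage genes averaged 9.02 and 9.19, against 7.71 and 7.47 to 7.88, and 6 endothelial genes 10.83 and 10.81, against 11.23 and 11.10 to 11.26. The marker genes measured these differences and their cause was not tested; the member counts are given with and without these arrays.

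The promoters of the members are shown because the ER stress response element (ERSE), which NF-Y and ATF6 or XBP1 bind together, is the textbook link between the response and its chaperone targets. RefSeq promoters of assembly GRCm38.p6, from 250 bases before to 50 after the annotated start, were found for 7 members: Hspa5, Xbp1, Creld2, Sdf2l1, Dnajb9, Pdia4 and Pdia6. The element was searched on both strands as CCAAT, 9 bases of any kind and CCACG. It occurred in 3 of these 7 promoters. Among all 27025 genes with promoters of the same length, 37 had it in at least 1 promoter (0.137%). Its first part CCAAT alone occurred in 6 of 7 (41.1% of all these genes) and its last part CCACG alone in 6 of 7 (35.5%), and both short strings overlap the whole element where it is present. ERSE-II, searched as ATTGG, 1 free base and CCACG, was in 0 of 7 (0.0444% of all) and the UPR element TGACGTGG in 0 of 7 (0.714%). A match of letters is a description of the sequence, not evidence of a bound site.

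The first of the matches lies in the Hspa5 promoter (plus strand, chr2:34771840-34772139), at positions -65 to -47 counted from the start. The Creld2 match lies on the strand opposite to the gene, at positions -126 to -108 (plus strand, chr15:88819396-88819695), and reads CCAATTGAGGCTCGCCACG in the direction of the element. In Pdia6 it lies at positions -98 to -80 (plus strand, chr12:17266339-17266638). Xbp1 (plus strand, chr11:5520391-5520690) is shown as the contrast, since neither the element nor either short string occurs in its window. Capitals mark the element.
Hspa5: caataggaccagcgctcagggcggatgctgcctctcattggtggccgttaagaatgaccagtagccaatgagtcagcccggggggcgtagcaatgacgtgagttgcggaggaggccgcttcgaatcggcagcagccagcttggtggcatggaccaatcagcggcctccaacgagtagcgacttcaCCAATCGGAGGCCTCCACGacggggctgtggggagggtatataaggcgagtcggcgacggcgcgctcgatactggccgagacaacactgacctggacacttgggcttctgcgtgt
Creld2: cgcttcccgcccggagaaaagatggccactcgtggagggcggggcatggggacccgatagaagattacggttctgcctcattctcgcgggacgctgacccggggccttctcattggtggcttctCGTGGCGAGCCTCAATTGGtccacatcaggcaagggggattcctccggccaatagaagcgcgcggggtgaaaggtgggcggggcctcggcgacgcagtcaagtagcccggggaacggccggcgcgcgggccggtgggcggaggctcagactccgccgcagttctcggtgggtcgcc
Pdia6: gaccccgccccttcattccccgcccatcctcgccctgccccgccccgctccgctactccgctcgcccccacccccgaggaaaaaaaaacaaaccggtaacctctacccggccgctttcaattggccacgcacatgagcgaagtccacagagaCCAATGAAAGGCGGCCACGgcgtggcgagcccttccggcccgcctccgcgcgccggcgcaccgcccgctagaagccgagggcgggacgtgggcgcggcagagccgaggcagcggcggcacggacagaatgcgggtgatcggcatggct
Xbp1: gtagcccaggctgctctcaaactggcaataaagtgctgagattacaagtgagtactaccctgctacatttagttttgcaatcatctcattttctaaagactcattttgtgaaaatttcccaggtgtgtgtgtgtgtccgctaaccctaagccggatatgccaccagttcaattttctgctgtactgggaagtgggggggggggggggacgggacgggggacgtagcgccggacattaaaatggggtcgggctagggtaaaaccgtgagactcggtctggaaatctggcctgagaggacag

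**Figure D1:**
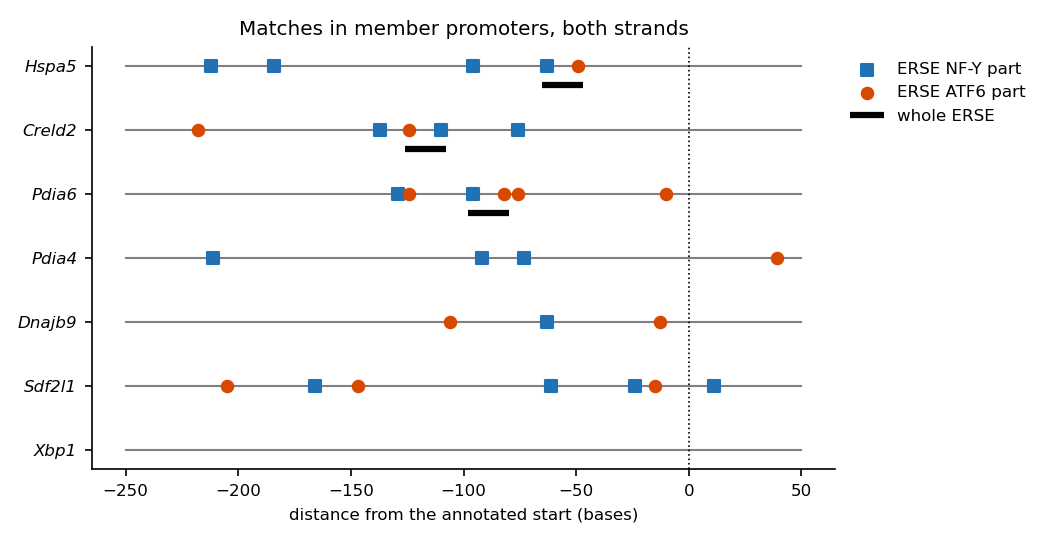
Matches in the 7 member promoters, with the distance from the annotated start in bases on the x axis and 1 row per gene. Squares mark CCAAT, the NF-Y part of the element, circles CCACG, the ATF6 part, and bars the whole element, which is present in Hspa5, Creld2 and Pdia6, while the Xbp1 row is empty.

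The question of the challenge comparisons was which members differ between challenged and unchallenged lungs of the same genotype. In wild types the challenge was accompanied by higher Ern2, Hspa5 and Hyou1, and in mutants by higher Ern2, Hspa5 and Manf, of which Hspa5 in mutants turned to -0.11 with median scaling. Of 9 member genes tested by their brightest probe, 3 were higher and 0 lower in wild types, where 11.2% of 10187 genes were called higher and 11.4% lower. In mutants 3 of 9 were higher and 0 lower, where 15.1% of genes were called higher and 15.2% lower. The median log2 difference of the 9 members was 0.47 in wild types and 0.39 in mutants, beside 0.02 and 0.01 over all genes tested. With each array scaled by its median in place of quantile normalization, the members' median was 0.03 in wild types, with 2 called higher and 0 lower, and turned to -0.36 in mutants, with 2 called higher and 3 lower. These medians lay 0.34 and 0.18 above the median of all probes under that scaling. A gene is called at an adjusted p under 0.05, from limma's moderated test across all 14396 probes with Benjamini-Hochberg adjustment. The values that follow are normalized log2 intensities, on which a difference of 1 is a doubling of intensity, and in whole lung fewer cells of a type and less RNA per cell cannot be told apart. Levels of different probes are not set against each other, and gene positions are those of RefSeq on GRCm38.p6.

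The counts depended on single arrays. Leaving out 1 array at a time gave 2 to 6 calls in wild types, with 6 without challenged mutant 4, and 1 to 5 in mutants, with 1 without unchallenged mutant 1 or without unchallenged mutant 2 and 5 without challenged mutant 1. The number of all probes called moved as well. Of 14396 probes it was 4362 in wild types without challenged mutant 4, beside 3240 with all arrays. In mutants it was 3235, 2310 and 4554 without unchallenged mutant 1, unchallenged mutant 2 and challenged mutant 1, beside 4392 with all arrays. Without the 4 arrays high in exocrine pancreas genes, 2 members were called in wild types (Ern2 and Hspa5) and 3 in mutants, with 2444 and 5603 probes called in all. Without unchallenged mutants 1 and 3, which leaves 1 unchallenged mutant assumed to vary like the other groups, 2 were called in wild types and 2 in mutants, with 2685 and 1665 probes called in all.

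**Figure D2:**
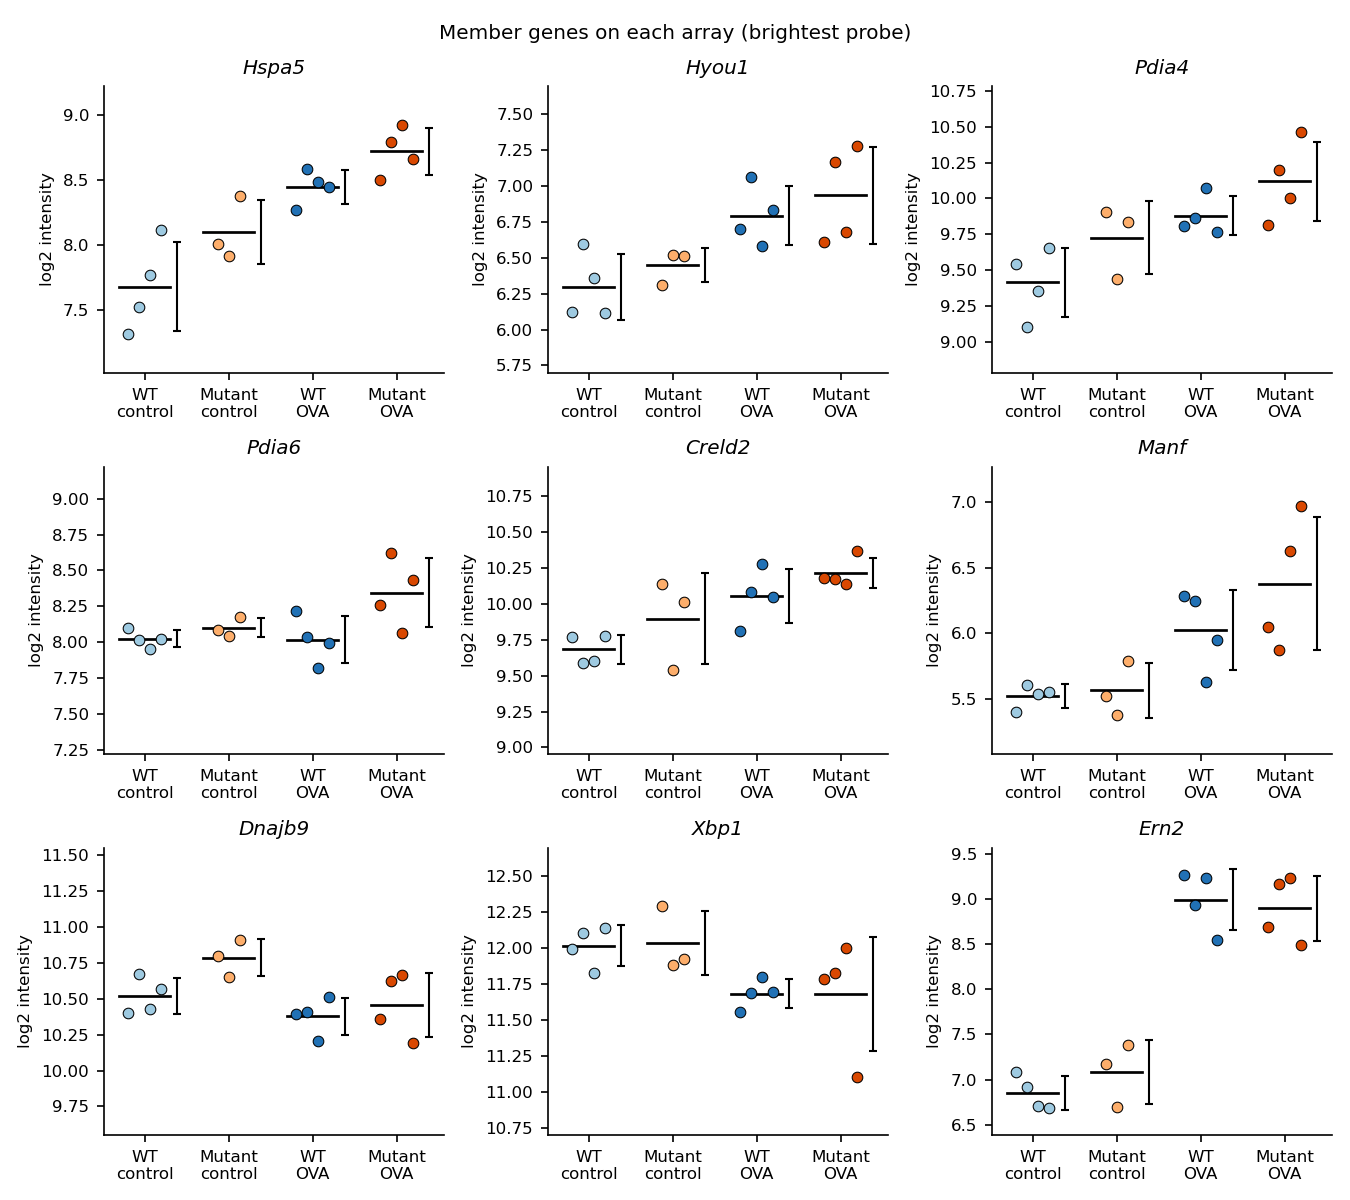
Normalized log2 intensity of the 9 member genes (y axis, brightest probe) on each of the 15 arrays, by group (x axis). Points are arrays, the horizontal bar is the group mean and the error bar beside it the SD; the challenged arrays of Ern2 lie between 8.50 and 9.27, above all unchallenged arrays at 6.69 to 7.38.

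Ern2 (probe ILMN_1214511; chr7:122169893-122186239), a sensor of the IRE1 family found in mucus-producing epithelium, had the largest difference among the members in both genotypes. In unchallenged wild types its level was 7.09, 6.92, 6.70 and 6.69, and in challenged wild types 9.27, 8.94, 9.23 and 8.54. Unchallenged mutants had 7.17, 6.69 and 7.38, and challenged mutants 8.69, 9.17, 9.23 and 8.50. Challenged and unchallenged arrays did not overlap in either genotype. The fold was 4.42 in wild types (95% interval 3.24 to 6.04; log2 2.15 ± 0.21, SE; limma adjusted p = 3.36e-05) and 3.52 in mutants (2.51 to 4.92; log2 1.81 ± 0.23; adjusted p = 0.000171). The call in wild types was kept in 29 of 29 alternative settings, and the call in mutants in 28 of 29, the exception being mean signal as a covariate (adjusted p = 0.0776). Mean signal did not overlap between challenged and unchallenged mutants, so that setting can hardly tell brightness from challenge there.

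Ern2 was lowest on the array that was also lowest for the goblet cell list in 4 of 4 groups, and highest on the array highest for that list in 2 of 4. The list rose together with Ern2: 9 of its 9 tested genes were called higher in wild types and 7 of 9 in mutants, among them Muc5ac, the gel-forming airway mucin (at least 15.4-fold in wild types, where 0 of 4 unchallenged arrays detected it; log2 2.87 ± 0.46 in mutants). The mean log2 intensity of the list ran from 6.76 to 7.31 in unchallenged wild types, from 9.51 to 10.32 in challenged wild types, from 6.86 to 8.42 in unchallenged mutants and from 9.35 to 10.40 in challenged mutants. Within the list Agr2, a disulfide isomerase of goblet cells, was detected on 0 arrays. The same held for Canx, Rpn1 and Ssr1 of the ER lists below. A probe without detection does not show that its gene was absent. The part of these markers in the Ern2 difference was not tested. The shared order was not particular to goblet cell genes. Challenged wild type 4 and challenged mutant 4 were also lowest in their groups for alveolar type 2 genes (11.86 and 11.56) and ciliated cell genes (7.77 and 7.45). Among unchallenged mutants, the macrophage list was also lowest on mutant 2 (7.71) and highest on mutant 3 (9.19). Ern1, the widely expressed sensor of the same family, was detected on 0 of 15 arrays and has no test.

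Hspa5 (probe ILMN_1255561; chr2:34772090-34776529) encodes BiP, the main ER chaperone of the heat shock 70 family, which also holds the sensors inactive. Its level was 7.32, 7.53, 7.77 and 8.12 in unchallenged wild types and 8.27, 8.58, 8.49 and 8.44 in challenged wild types. In mutants it was 8.01, 7.92 and 8.38 without challenge and 8.50, 8.79, 8.92 and 8.66 with it. The groups did not overlap in either genotype, but the highest unchallenged array came within 0.2 of the lowest challenged one in each. The fold was 1.70 in wild types (95% interval 1.33 to 2.17; log2 0.76 ± 0.17, SE; limma adjusted p = 0.00556). In mutants Hspa5 was 1.54-fold higher (1.18 to 2.00; log2 0.62 ± 0.18; adjusted p = 0.0191), whereas median scaling, which moved the median of all probes to -0.54, turned the value to -0.11 (adjusted p = 0.705), still 0.43 above that median. With median scaling in wild types it was 0.36 (adjusted p = 0.222), against a median of all probes of -0.31. Without the 4 arrays high in exocrine pancreas genes the log2 differences were 0.78 (adjusted p = 0.0320) and 0.69 (adjusted p = 0.0336).

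Hyou1 (probe ILMN_2661367; chr9:44379490-44392369) encodes a large ER chaperone that serves BiP as a nucleotide exchange factor. Unchallenged wild types had 6.12, 6.60, 6.36 and 6.12, and challenged wild types 6.70, 7.06, 6.58 and 6.83. The values overlapped in 1 pair of arrays, unchallenged 2 and challenged 3. The log2 difference was 0.50 ± 0.17 (SE), just inside the threshold (limma adjusted p = 0.0491), and the call was kept in 11 of 29 alternative settings. In mutants the levels were 6.31, 6.52 and 6.51 without challenge and 6.61, 7.17, 6.68 and 7.28 with it, and did not overlap, while the difference of 0.49 ± 0.18 did not pass (adjusted p = 0.0576). With median scaling Hyou1 stood at 0.24 in wild types and turned to -0.06 in mutants, neither called, at 0.55 and 0.48 above the median of all probes. The difference between these responses was -0.01 (95% interval -0.54 to 0.53).

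Manf (probe ILMN_2597229; chr9:106888753-106891938), a small ER protein that is secreted on stress and binds BiP, was near the detection limit. Detection was reached in 2 of 4 unchallenged and 3 of 4 challenged wild types, and in 1 of 3 unchallenged and 4 of 4 challenged mutants. The levels were 5.52, 5.38 and 5.79 in unchallenged mutants and 6.05, 5.87, 6.62 and 6.97 in challenged mutants. Those of challenged mutants 3 and 4 were the highest of all 15 arrays after normalization. These were also the dimmest arrays (mean signal 408 and 319.9). Before normalization their Manf signals were 196.8 and 194.1, below 206.0 on challenged wild type 2. The normalized levels of mutants did not overlap (1.76-fold, 95% interval 1.25 to 2.49; log2 0.81 ± 0.23, SE; limma adjusted p = 0.0177). In wild types the levels were 5.40, 5.61, 5.54 and 5.55 without challenge and 6.29, 6.25, 5.63 and 5.95 with it, also without overlap, and the difference of 0.50 ± 0.22 did not pass (adjusted p = 0.107). With mean signal as a covariate, which can hardly be told from challenge in mutants, the value there was 0.29 (adjusted p = 0.732). With median scaling Manf was called in both genotypes, at 0.43 (adjusted p = 0.0468) and 0.57 (adjusted p = 0.0129).

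**Figure D3:**
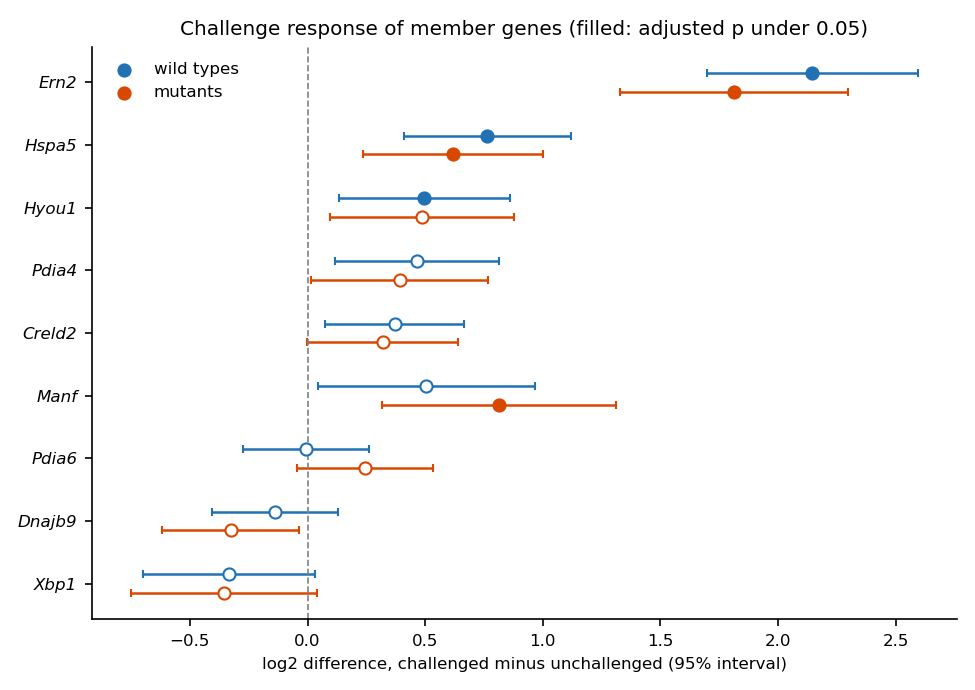
Log2 difference between challenged and unchallenged arrays (x axis) with its 95% interval for the 9 member genes (rows), in wild types and mutants. Filled points passed an adjusted p of 0.05; Ern2 stands at 2.15 and 1.81 and Hspa5 at 0.76 and 0.62, the latter turning to -0.11 in mutants with median scaling.

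Creld2 (chr15:88819646-88826681) encodes a secreted ER-stress-inducible protein with disulfide isomerase activity, and its 2 probes gave different calls. The brighter probe ILMN_2983948 had 9.77, 9.59, 9.61 and 9.77 in unchallenged and 9.81, 10.08, 10.28 and 10.05 in challenged wild types, without overlap, and the difference of 0.37 ± 0.14 (SE) did not pass (limma adjusted p = 0.0670). The second probe ILMN_2757368 had 9.60, 9.19, 9.14 and 9.49 against 9.76, 9.96, 10.00 and 9.58, with overlap, and was called at 0.47 ± 0.14 (adjusted p = 0.0309). In mutants the brighter probe had 10.14, 9.54 and 10.02 without and 10.18, 10.17, 10.14 and 10.37 with challenge. Unchallenged mutants 1 and 3, the arrays high in goblet cell and macrophage genes and low in endothelial genes, came close to the challenged arrays and mutant 2 did not. Neither probe was called in mutants (0.32 ± 0.15, adjusted p = 0.116, and 0.28 ± 0.16, adjusted p = 0.179). Without unchallenged mutants 1 and 3 the brighter probe stood at 0.68 (adjusted p = 0.0409). With median scaling it turned sign in both genotypes, to -0.07 in wild types and -0.41 in mutants, neither called, at 0.24 and 0.13 above the median of all probes.

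Pdia4 (probe ILMN_1249670; chr6:47796141-47813512) and Pdia6 (probe ILMN_2489360; chr12:17266589-17284785) are protein disulfide isomerases, which form and rearrange disulfide bonds. Pdia4 had 9.54, 9.10, 9.36 and 9.65 in unchallenged and 9.81, 9.87, 10.07 and 9.77 in challenged wild types, without overlap (log2 difference 0.47 ± 0.16, SE; limma adjusted p = 0.0531). Unchallenged mutants had 9.91, 9.44 and 9.83 and challenged mutants 9.82, 10.19, 10.00 and 10.46, which overlapped (0.39 ± 0.18; adjusted p = 0.103). With median scaling Pdia4 stood at 0.03 in wild types and turned to -0.36 in mutants, neither called, at 0.34 and 0.18 above the median of all probes. As with Creld2, unchallenged mutants 1 and 3 lay above mutant 2. Pdia6 had 8.10, 8.02, 7.95 and 8.02 in unchallenged and 8.22, 8.04, 7.82 and 7.99 in challenged wild types. Its difference was -0.01 (95% interval -0.27 to 0.26; adjusted p = 0.979). In mutants Pdia6 had 8.09, 8.05 and 8.17 against 8.26, 8.62, 8.06 and 8.43 (0.24 ± 0.14; adjusted p = 0.181), and with median scaling this value turned to -0.47 (adjusted p = 0.0351), 0.07 above the median of all probes.

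Xbp1 and Dnajb9 had negative differences that did not pass the test. Xbp1 (probe ILMN_2431237; chr11:5520641-5525993), whose mRNA is spliced by IRE1, had 11.99, 12.11, 11.83 and 12.14 in unchallenged and 11.55, 11.69, 11.80 and 11.70 in challenged wild types. All 4 challenged arrays lay below all 4 unchallenged ones, the only member to do so, and the difference was -0.33 ± 0.17 (SE; limma adjusted p = 0.172). Mutants had 12.29, 11.89 and 11.93 without and 11.78, 11.83, 12.00 and 11.10 with challenge, which overlapped (-0.36 ± 0.18; adjusted p = 0.153). Whether the probe tells the spliced from the unspliced mRNA was not examined here, so the values are levels of Xbp1 mRNA and not of splicing.

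Dnajb9 (chr12:44205897-44210068) encodes ERdj4, a BiP co-chaperone and known target of XBP1. Of its 2 probes ILMN_1248003 was detected on 0 of 15 arrays and not tested. The other, ILMN_2829636, had 10.40, 10.67, 10.43 and 10.56 in unchallenged and 10.39, 10.41, 10.20 and 10.51 in challenged wild types (-0.14 ± 0.13; limma adjusted p = 0.451). In mutants it had 10.80, 10.65 and 10.91 without and 10.36, 10.62, 10.66 and 10.19 with challenge (-0.33 ± 0.14; adjusted p = 0.0820). The groups overlapped in both genotypes, in mutants by 1 pair of arrays. With median scaling the mutants' Dnajb9 and Xbp1 were called lower, at -1.04 (adjusted p = 0.00229) and -1.01 (adjusted p = 0.00975), which were 0.50 and 0.47 below the median of all probes.

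Seen over the members, groups that did not overlap were counted apart from the test. In wild types 5 of 9 members had all challenged above all unchallenged arrays and 1 of 9 all below, beside 14.6% and 14.8% of all genes. In mutants 5 of 9 lay above and 0 below, beside 18.6% and 19.7%. At an unadjusted p under 0.05 in either direction there were 6 of 9 members in each genotype, beside 35.9% of all genes in wild types and 43% in mutants.

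The genotype comparisons asked whether homozygous mutants differ from wild types in the same state. No member was called: 0 of 9 without challenge, where 0.00982% of genes were called in either direction, and 0 of 9 with challenge, where 0.157% were. At an unadjusted p under 0.05 there was 1 member of 9 in each, beside 2.64% of all genes without challenge and 13% with it: Hspa5 without challenge (0.42 ± 0.18, SE; limma adjusted p = 1.00) and Pdia6 with challenge (0.33 ± 0.13; adjusted p = 0.286). Without challenge 9 of 9 members had a higher mean in mutants, by 0.02 to 0.42 on the log2 scale. With challenge 7 of 9 did, and 3 of 9 with median scaling. The members' median difference without challenge was 0.21, beside -0.01 over all genes. For some members the direction depended on unchallenged mutants 1 and 3. Leaving these out keeps 1 unchallenged mutant. Against wild types Xbp1 (-0.13), Creld2 (-0.15), Manf (-0.14) and Ern2 (-0.16) were then lower in it, and the other members stayed higher. The 95% intervals of the members' genotype folds reached from 0.728 to 1.75 without challenge and from 0.684 to 1.76 with it. Without the 4 arrays high in exocrine pancreas genes, Manf was called higher in challenged mutants than in challenged wild types, by 1.01 (adjusted p = 0.0337). This rests on 2 arrays against 2, and the mutant arrays were the dimmest of the series.

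The interaction asked whether the response to challenge differs between the genotypes. For 0 of 9 members did it pass, and over all genes 0% were called; at an unadjusted p under 0.05 there were 0 members, beside 4.1% of all genes. The largest differences were those of Ern2, whose response in mutants minus that in wild types was -0.33 (95% interval -0.99 to 0.33), and Manf with 0.31 (-0.37 to 0.99). Over the 9 members the intervals reached from -0.99 to 0.99.

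The other genes of the response and of the secretory pathway were taken from lists that cover its sensors, its stress targets and the steps of protein handling. Of the higher calls, 5 of 9 in wild types and 6 of 10 in mutants stood in the list of other ER chaperones and folding enzymes, and the lower calls included Atf4, Mbtps1 and Kdelr2 in both genotypes. That list and the translocon list had 21 tested genes each, and the others 8 to 12. The counts of these and of the marker lists stand beside 11.2% of all genes called higher and 11.4% lower in wild types. In mutants these shares were 15.1% and 15.2%. Under median scaling the higher calls largely ended: of 9 in wild types 1 was still called and 1 turned sign, and of 10 in mutants 1 was still called and 8 turned sign, though 9 of 9 and 10 of 10 stayed above the median of all probes. Of the lower calls, 6 of 6 in wild types and 6 of 6 in mutants were kept. This scaling moved the median of all probes down, to -0.31 in wild types and -0.54 in mutants. A lower call could therefore hardly be lost, and its being kept is no check on it. Relative to that median, 6 of 6 and 6 of 6 stayed below. The single higher call kept in each was Atf3. Calls in these lists were not recomputed without the challenged arrays high in exocrine pancreas genes, and the part of those arrays was not tested.

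Among 8 tested sensors and transcription factors, 0 were called higher and 2 lower in wild types, and 1 higher and 2 lower in mutants. Atf4, the transcription factor downstream of PERK, fell by 0.64 ± 0.10 (SE; limma adjusted p = 0.000942) in wild types, from 9.87 ± 0.12 to 9.23 ± 0.06 (SD, n = 4 each). In mutants it fell by 0.81 ± 0.11 (adjusted p = 0.000260), and its groups did not overlap in either genotype. Eif2ak3, which encodes PERK itself, stood at 0.33 ± 0.13 (adjusted p = 0.0905) in wild types and was called in mutants at 0.53 ± 0.15 (adjusted p = 0.0140), where median scaling turned it to -0.21. Mbtps1, the protease that cuts ATF6, was called lower by its brightest probe (-0.59 and -0.54) and by ILMN_2748537 (-0.74 and -0.90), while ILMN_1245330 stood at -0.04 and 0.07. Creb3l4, a membrane-bound transcription factor, differed by 0.80 in wild types (adjusted p = 0.0655) and by -0.16 in mutants (adjusted p = 0.726).

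Of 10 tested targets of the PERK branch and of the integrated stress response, 1 was called higher and 0 lower in each genotype. It was Atf3, a stress-induced transcription factor, which rose 2.05-fold in wild types (log2 1.04 ± 0.11, SE; limma adjusted p = 6.16e-05) and 2.04-fold in mutants (1.03 ± 0.12; adjusted p = 0.000113). Its challenged wild types ran from 6.89 to 7.25 and its unchallenged ones from 5.90 to 6.24. Ppp1r15a, the phosphatase subunit that restores translation, differed by 0.15 and 0.36 and was not called. Asparagine synthetase Asns (-0.34 and -0.12), Atf5 (-0.53 and -0.51) and Ddit4 (-0.67 and -0.17) were not called either. The dimmer Asns probes gave -0.17 and 0.26 (ILMN_3006123) and 0.08 and 0.41 (ILMN_2636755), also without a call.

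The folding list had 21 tested genes, of which 5 were higher and 1 lower in wild types and 6 higher and 1 lower in mutants. Erp29, an ER protein related to disulfide isomerases, rose 1.68-fold in wild types (log2 0.75 ± 0.14, SE; limma adjusted p = 0.00291) and 1.64-fold in mutants (0.72 ± 0.16; adjusted p = 0.00435), and with median scaling was at 0.38 and 0.10 without a call. Txndc5, a disulfide isomerase, was higher by 0.50 and 0.60, but at 0.08 and -0.11 with median scaling. P4hb, the founding disulfide isomerase, was called in wild types at 0.43 (adjusted p = 0.00676) and not in mutants at 0.27 (adjusted p = 0.0580). The remaining higher calls, named after their values were seen, were Erp44 and Uggt1 in both genotypes and Pdia5 and Ero1b in mutants. Against these, Fkbp14, a prolyl isomerase of the ER, fell by 1.80 ± 0.30 in wild types (adjusted p = 0.00117) and was at least 2.63-fold lower in mutants, where 0 of 4 challenged arrays detected it.

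The lists of degradation and translocation cover the removal and the entry of ER proteins. Of 12 tested genes of ER-associated degradation 0 were called in wild types and 1 in mutants, Herpud1, an organiser of the degradation complex and a known target of the response, which fell by 0.67 ± 0.17 (SE; limma adjusted p = 0.00991). In wild types it stood at -0.44 (adjusted p = 0.0575), and its second probe ILMN_2790246 gave -0.34 and -0.62 with the same calls. Edem2 (0.34 and 0.28), Os9 (-0.34 and -0.30), and Vcp (0.10 and 0.30) were not called. The dimmer Edem2 probes had the other sign, also without a call: -0.09 and -0.24 (ILMN_2669280), -0.27 and -0.14 (ILMN_1237028), and -0.24 and -0.15 (ILMN_2918469). Derl3 was not called either, and its signal passed detection on 0 of 4 arrays in unchallenged wild types and in challenged mutants. Of 21 tested translocon and glycosylation genes, 3 were higher and 1 lower in wild types and 2 higher and 0 lower in mutants. Sec61a1, the channel subunit, was higher by 0.46 and 0.74, but at 0.03 and -0.01 with median scaling. Ostc of the oligosaccharyltransferase was higher by 0.58 and 0.31, with 0.18 and -0.39 under median scaling, and Ssr4 was called in wild types at 0.47 and not in mutants at 0.27 (adjusted p = 0.150). Stt3b, a catalytic subunit of the same enzyme, fell by 0.37 in wild types and stood at -0.25 in mutants (adjusted p = 0.129).

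Of 12 tested ER-to-Golgi transport genes 0 were higher and 2 lower in each genotype. Over all genes 11.4% were called lower in wild types and 15.2% in mutants. Kdelr2, the receptor that returns escaped ER chaperones, fell by 0.71 ± 0.15 (SE; limma adjusted p = 0.00507) in wild types and by 0.78 ± 0.16 (adjusted p = 0.00356) in mutants. Bet1, a SNARE of this route, had a signal above detection on 3 of 4 unchallenged wild types, 3 of 3 unchallenged mutants and 0 of 8 challenged mice, which gives at least 1.07-fold lower in wild types (adjusted p = 0.00952) and no bound in mutants. Sec24d (-0.32 and -0.26) and Sec16b (-0.30 and -0.15) were not called.

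**Figure D4:**
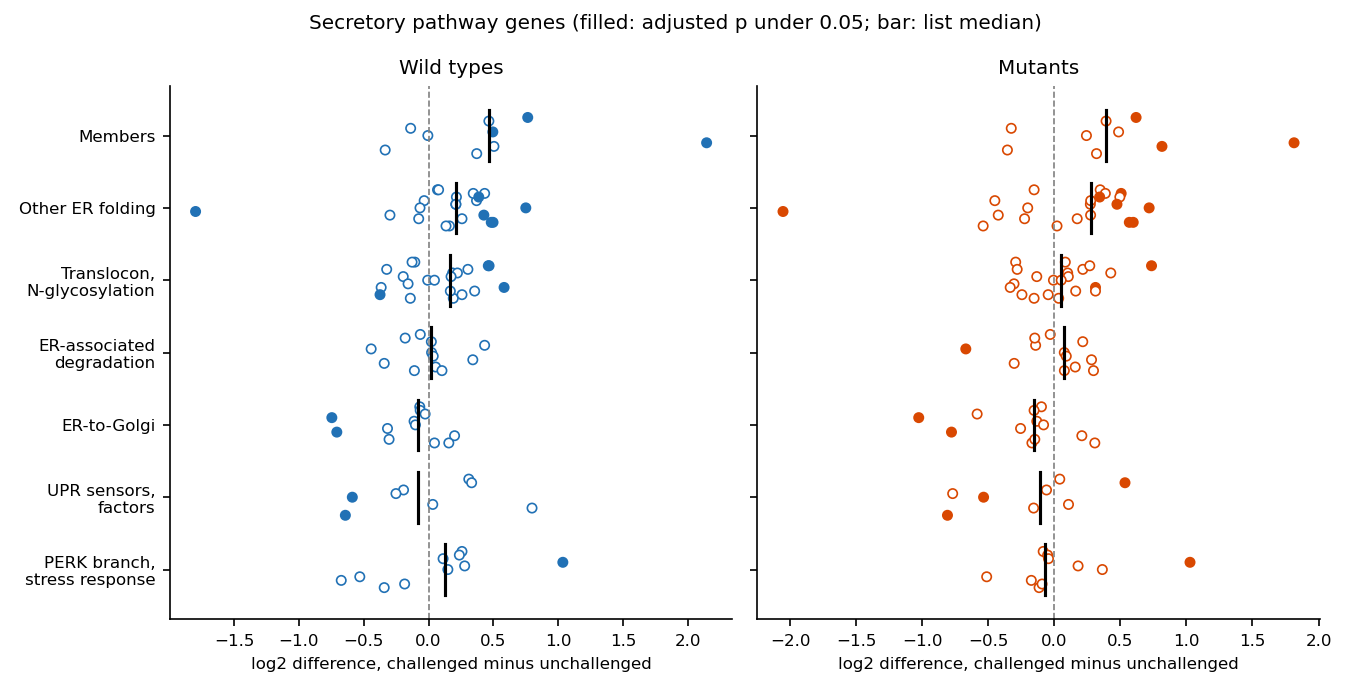
Log2 differences between challenged and unchallenged arrays (x axis) of the tested genes of each pathway list (rows), in wild types and in mutants. Filled points passed an adjusted p of 0.05 and black bars are list medians. Median scaling moved the median of all probes down. Most higher calls ended with it, though each stayed above that median. The lower calls, such as Atf4 at -0.64 and -0.81, could hardly be lost, so their being kept is no check on them.

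Markers of other cells moved with the challenge, and their values are given beside the members. Of 9 tested plasma and B cell genes, 1 was called higher in wild types (Irf4) and 3 in mutants (Jchain, Cd79a and Cd79b), and the mean log2 intensity ran from 6.73 to 7.28, 7.53 to 7.90, 6.67 to 7.88 and 7.78 to 8.78 in unchallenged wild types, challenged wild types, unchallenged mutants and challenged mutants. Tnfrsf17 and Prdm1 of this list were detected on 0 arrays. Derl3 also stands in the degradation list, and Fkbp11 in the list of other ER chaperones and folding enzymes. Challenged mutants 3 and 4, highest for Manf after normalization and the dimmest arrays, were also highest for the plasma and B cell list, at 8.45 and 8.78. Within groups the order was mostly not shared. Manf and this list had the same lowest array in 1 of 4 groups and the same highest array in 1 of 4. Alternatively activated macrophage genes were called higher in 8 of 8 in wild types and 7 of 8 in mutants. Of 6 tested endothelial genes 4 were lower in each genotype, and of 6 club cell genes 2 were lower in wild types and 5 in mutants. Of 8 alveolar type 2 genes 2 were higher and 3 lower in wild types, and 0 higher and 4 lower in mutants. Of 6 ciliated cell genes 0 were called in wild types and 3 were lower in mutants. Of 15 exocrine pancreas genes, high on only some challenged arrays, 1 was called higher in each genotype. Their median log2 difference was 3.51 in wild types and 3.43 in mutants. Between challenged mutants and challenged wild types, 2 of 6 club cell genes were lower in mutants. The part of these cell types in the member differences was not tested.

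**Figure D5:**
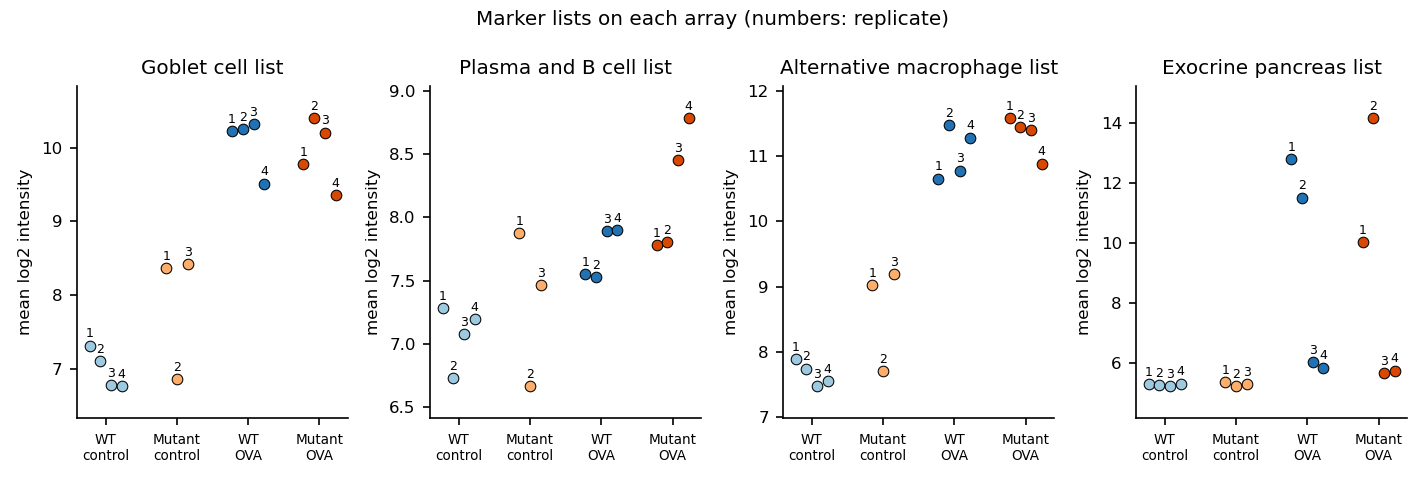
Mean log2 intensity of the tested genes of marker lists (y axis) on each array, by group (x axis), with the replicate number at each point. The exocrine pancreas list separates challenged replicates 1 and 2 of both genotypes from the rest, and unchallenged mutants 1 and 3 stand at 8.37 and 8.42 on the goblet list.

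No other member was among the 5 genes whose array-to-array pattern was most like that of Hspa5 or of Ern2. After each group's mean was subtracted, the genes most like Hspa5 over the 15 arrays, among 10186 genes, were Asb8 (Pearson r 0.90), Lpcat4 (0.89), Tmsb4x (0.85), Zbp1 (0.83) and Sfrp2 (0.83). The nearest members were Dnajb9 at rank 466 (0.42) and Pdia4 at rank 795 (0.35), and the farthest was Pdia6 at rank 7299 (-0.16). Most like Ern2 were Tlr4 (0.89), Scgb3a1 (0.89), Stat2 (0.88), Kcnrg (0.88) and Cxcl17 (0.88), and its nearest member was Xbp1 at rank 945 (0.47). These correlations describe arrays that share their normalization and brightness, and the highest of 10186 are given.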

How the data were processed

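Whole-lung RNA of 15 mice was hybridised to Illumina mouse beadchips, each from a different mouse. Per the file headers, the deposited table holds non-normalized intensities of 25697 probes and, beside each, its detection p-value. Per the submitters' processing notes GenomeStudio 2011.1 was used. The intensities deposited by the authors as series matrix values served only as an alternative.

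In R 4.3.3, with the neqc function (offset 16) of limma 3.58.1, the background was corrected, arrays were quantile-normalized and log2 values taken. Probes detected at p under 0.05 on 3 or more arrays were tested, 14396 in all. A model with a mean per group was fitted to all 15 arrays (11 residual degrees of freedom) with lmFit and eBayes, and two-sided p-values were adjusted over all probes by Benjamini-Hochberg. Each of 10187 genes is represented by the probe with the highest mean. Of the probes, 23978 have 1 gene symbol and 1719 none listed. Where a group did not detect a probe on any array, a fold is a lower bound, with the dimmer group set per array at the higher of the lowest detected signal and its own value.

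All members and every probe of each are named. From each other pathway list the 4 genes with the smallest p for challenge in wild types and the 2 for challenge in mutants are named, plus the 5 genes most like Hspa5 and Ern2. Members and lists were chosen with earlier results of these data known. Promoters and gene names came from RefSeq tables of GRCm38.p6. The number of arrays limits the precision. Alternatives were no background correction, a larger offset (50), scaling by the median or by cyclic loess, the series matrix values deposited by the authors, looser and stricter detection filters, trend and robust moderation, array weights, only the groups compared, a replicate block, mean signal as a covariate, and each array left out in turn. Leaving out the 4 challenged arrays high in exocrine pancreas genes, or unchallenged mutants 1 and 3, was chosen after seeing the data.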

Additional observations from a re-analysis of the deposited data

How the results depend on the processing

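Member differences were recomputed under up to 29 alternatives each, 1296 values in all: 1235 kept their side of the threshold, 64 of them uncalled values with the other sign, 29 lost and 30 gained a call, and 2 called or newly called values turned sign. Both came with median scaling in mutants, Hspa5 at -0.11 (adjusted p = 0.705) and Pdia6 at -0.47 (adjusted p = 0.0351). That setting moved the median of all probes to -0.31 in wild types and -0.54 in mutants, and lower calls then outnumbered higher ones by 4600 to 558 and 7391 to 540, beside 1829 to 1411 and 2448 to 1944. In wild types the count of called members went from 3 to 6 with cyclic loess, 6 with array weights and 5 with only the groups compared, and that of all probes called from 3240 to 3992, 5410 and 3846. In mutants it went from 3 to 5 with median scaling (3 of them lower; 7931 probes called, beside 4392) and 0 with mean signal as a covariate, where 190 probes were called in all. That covariate did not overlap between challenged and unchallenged mutants and can hardly be told from challenge there. For genotype with challenge the count of called members went from 0 to 1 without the 4 arrays high in exocrine pancreas genes, and that of all probes from 25 to 224. Leaving out 1 array at a time gave 2 to 6 called members in wild types, 1 to 5 in mutants, and 0 to 0 in the genotype and interaction comparisons. The causes were not tested. Hyou1 in wild types kept its call in 11 of 29 settings, Hspa5 in 28 and, in mutants, in 24, and Manf in mutants in 24.

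The replicate numbers name separate mice and no label pairs them. Deviations from the group means correlated at a median of 0.066 (-0.11 to 0.50) between arrays of the same number and -0.03 between other numbers. With the replicate number as a block 3 members were called in each genotype, Hspa5 stood at 0.76 (adjusted p = 0.00519) and 0.58 (adjusted p = 0.0240), and Manf in mutants at 0.75 (adjusted p = 0.0487), and no member's call changed.

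Signal over background limits Manf, detected on 10 of 15 arrays, and the number of arrays limits every interval.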
